A study of Homo sapiens with 12 samples.

Results

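The cyclin-dependent kinase inhibitors examined here are the 7 genes of the Cip/Kip family (CDKN1A, CDKN1B and CDKN1C) and the INK4 family (CDKN2A, CDKN2B, CDKN2C and CDKN2D), taken by symbol from a table of 59653 genes. All 7 were found and all 7 passed the filter on low counts, which left 24671 genes. The table holds total RNA sequencing in 12 libraries labelled as human neurons, which were grown from pluripotent cells reprogrammed from IMR-90, a fetal lung fibroblast line. The siNC group (6 libraries) had received a negative control siRNA and the siZCC group (6 libraries) an siRNA against ZCCHC17, which encodes an RNA-binding zinc knuckle protein. All libraries come from that single line, and their titles carry the letters NPC, which the labels do not explain; nothing in the labels says whether the replicates are separate cultures, so the p-values measure only the spread between these libraries.

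Cyclin-dependent kinases drive the cell cycle when bound to cyclins. Cip/Kip proteins bind the kinase and the cyclin together, and act mainly on CDK2 complexes, while INK4 proteins bind CDK4 and CDK6 alone and keep D-type cyclins off them. Both brakes keep the retinoblastoma protein and its relatives active, which hold E2F target genes silent. In developing brain, p27 (CDKN1B), p57 (CDKN1C), p18 (CDKN2C) and p19 (CDKN2D) accompany the exit of progenitors from the cycle, and p21 (CDKN1A) is best known from the arrest that follows DNA damage.

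Of the 7 genes, 1 rose and 1 fell in siZCC. CDKN1A mRNA rose 1.51-fold and CDKN2C mRNA fell to 77.0% of the control level, while the other 5 did not pass the test. For comparison, 22.2% of all genes tested differed at an adjusted p under 0.05 (11.4% higher, 10.8% lower), so 2 of 7, or 28.6%, is near the background of this comparison. A change of at least 1.5-fold upward, as in CDKN1A, was called in 211 genes, or 0.855%, and 1.97% were called with a change of that size in either direction. CDKN1A only just reached that size, and its 95% interval of 1.36 to 1.67 includes smaller changes. The median log2 fold change of the 7 was 0.01, and that of all genes tested -0.0016.

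Sequencing depth was 90755953 to 120023356 assigned reads for siNC and 76115083 to 105389055 for siZCC. The targeted mRNA, ZCCHC17, ran from 53.99 to 61.0 CPM (counts scaled to a common library size) in siNC and from 9.37 to 10.6 CPM in siZCC, where 17.6% of the control level remained. Neuron markers summed to 4005 to 4481 CPM in siNC and 3604 to 4088 CPM in siZCC, with 1 higher and 8 lower of 15, and neural progenitor markers to 6347 to 6760 and 6388 to 6940 CPM, with 3 higher and 1 lower of 11. Astrocyte markers (5 higher, 1 lower of 10) summed to 1788 to 1989 and 1899 to 2208 CPM, and mesenchymal markers (0 higher, 4 lower of 10) to 344.6 to 626.6 and 229.8 to 400.4 CPM. The 10 microglia markers together had 1.46 to 2.81 CPM in siNC and 1.61 to 2.62 CPM in siZCC, with 0 called of 3 tested. Oligodendrocyte markers (0 higher, 1 lower of 5 tested) summed to 146.7 to 184.2 and 149.9 to 183.8 CPM, with MOG, MAG, SOX10 and PDGFRA under 1 CPM. Pluripotency markers (2 higher, 0 lower of 3 tested) summed to 15.5 to 17.0 and 20.01 to 21.9 CPM, with POU5F1 under 1 CPM. Progenitor markers thus summed to more than neuron markers in every library, an order that rests on VIM, which alone had 3353 to 3794 CPM. Astrocyte markers were well above 0. Neuron markers ranged from RBFOX3 (0.774 to 1.48 CPM) to MAP2 (899.6 to 1169 CPM). The proliferation gene MKI67 averaged 205 CPM in siNC and 143 CPM in siZCC, so the libraries cannot be read as resting neurons alone. In such bulk samples fewer cells of a type and less RNA per cell cannot be told apart. The part of these marker differences in the results on the inhibitors was not tested. In IL1B, 6 libraries (3 of each group) had 5.23 to 15.97 CPM and the other 6 at most 0.10 CPM; results are given on both sides of that split where they differ.

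**Figure D1:**
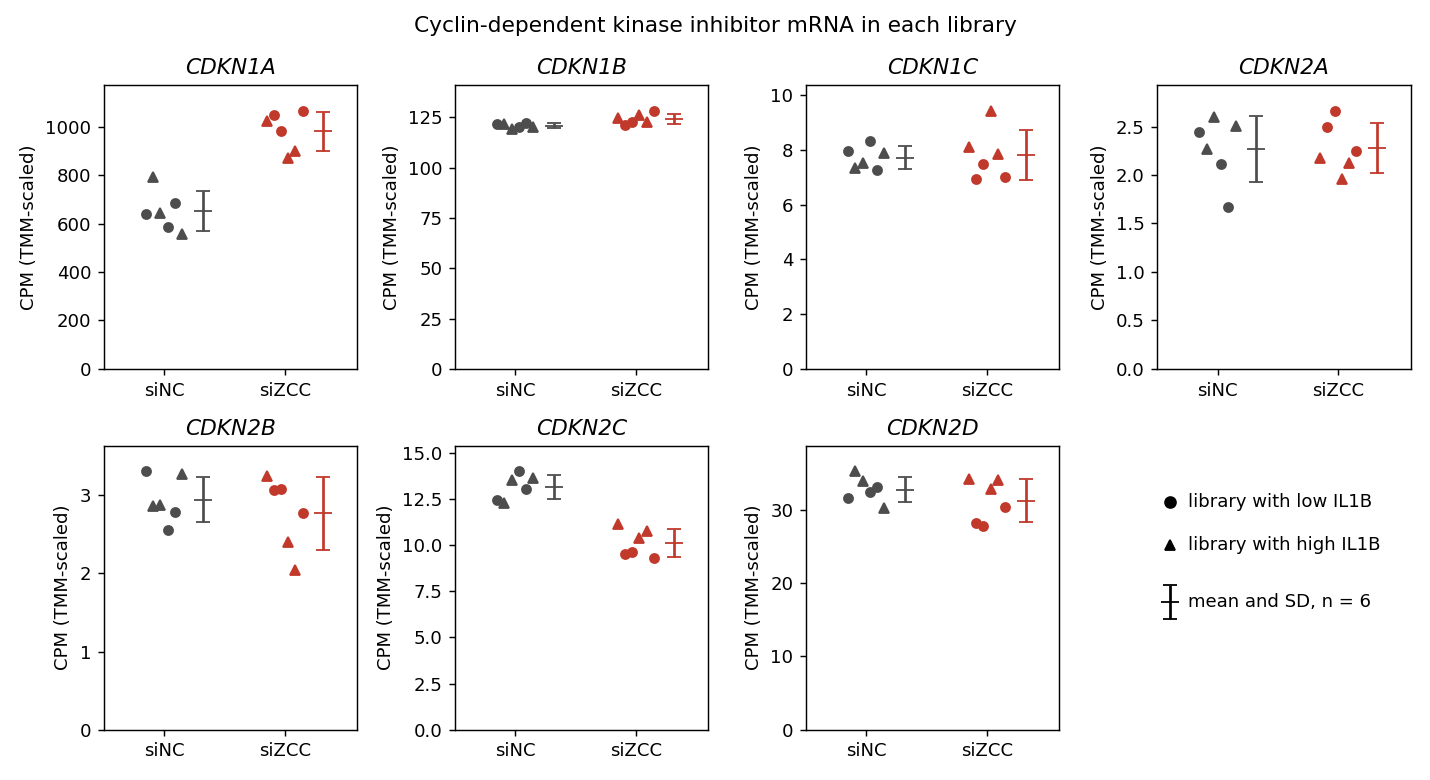
TMM-scaled CPM (y axis, from 0) of each inhibitor gene in the 6 siNC and 6 siZCC libraries; circles are libraries with low and triangles with high IL1B, and bars give mean and SD (n = 6). All 6 siZCC values lie above all siNC values for CDKN1A and below them for CDKN2C, and the groups overlap for the other 5.

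CDKN1A encodes p21, which stops the cycle after DNA damage and also marks senescent and differentiating cells. In siNC the libraries ran from 558 CPM through a median of 642 to 790 CPM. In siZCC they ran from 869 through 1002 to 1065 CPM. The lowest siZCC library, replicate 4, was thus above the highest siNC library, replicate 2, and the groups did not overlap; this held for 9.74% of all genes. The log2 fold change was 0.59 (SE 0.0705, adjusted p 2.21e-05, edgeR's quasi-likelihood test), a 1.51-fold rise with a 95% interval of 1.36 to 1.67. The exact permutation test over the 924 assignments of the libraries (two-sided) returned p = 0.00216, and no smaller p is possible with 6 libraries a group. Each library held between 53696 and 110213 CDKN1A counts, and the coefficient of variation between libraries was 12.6% in siNC and 8.25% in siZCC. By CPM it ranked 81 among the genes tested, and 3.02% of genes had a larger change in either direction.

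CDKN2C encodes p18, an INK4 protein of dividing neural progenitors. The siNC libraries ran from 12.3 CPM through a median of 13.3 to 13.99 CPM. The siZCC libraries ran from 9.30 through 10.01 to 11.1 CPM, all below every siNC library. The log2 fold change was -0.38 (SE 0.0519, adjusted p 8.21e-05, edgeR's quasi-likelihood test), which leaves 77.0% of the control level, with a 95% interval of 0.713 to 0.830 of it. It rested on 1279 to 1599 counts per siNC library and 778 to 1003 per siZCC library, and its exact permutation p was 0.00216 as well. Among all genes, 10.4% changed by more.

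**Figure D2:**
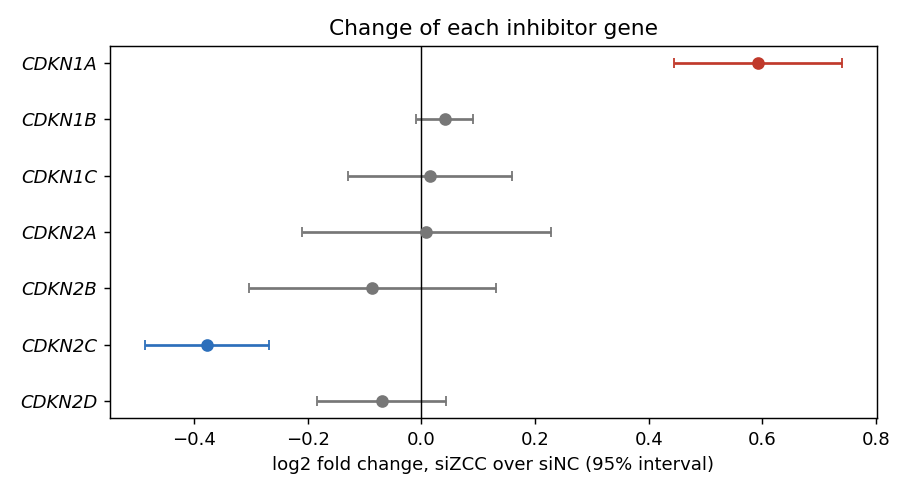
Log2 fold change of each inhibitor gene, siZCC over siNC (x axis), with its 95% interval from edgeR's quasi-likelihood fit (n = 6 libraries per group); red marks a rise and blue a fall at an adjusted p under 0.05. CDKN1A lies at 0.59 and CDKN2C at -0.38, and the intervals of the other 5 include 0.

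Stretches before a RefSeq start of each of the 2 genes that changed are shown because these are the members whose mRNA moved. They come from RefSeq (GRCh38.p14), plus strand, 5′ to 3′, and are restricted to bases outside annotated exons of the gene; the CDKN1A stretch is chr6:36678464-36678657, ending 56 bases before the annotated start at 36678714, and the CDKN2C stretch is chr1:50960495-50960744, next to the first of its 3 starts in the table. In the GENCODE v29 annotation CDKN1A begins at 36676460, so its stretch lies inside the span of the gene and not upstream of all of it. Capitals mark GC boxes (GGGCGG), bound by Sp1-type factors, and E boxes (CACGTG), with both strands searched.
CDKN1A: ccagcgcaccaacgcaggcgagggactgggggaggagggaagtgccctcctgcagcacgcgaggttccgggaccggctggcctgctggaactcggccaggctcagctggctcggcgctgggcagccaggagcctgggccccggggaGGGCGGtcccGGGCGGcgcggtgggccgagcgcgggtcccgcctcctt
CDKN2C: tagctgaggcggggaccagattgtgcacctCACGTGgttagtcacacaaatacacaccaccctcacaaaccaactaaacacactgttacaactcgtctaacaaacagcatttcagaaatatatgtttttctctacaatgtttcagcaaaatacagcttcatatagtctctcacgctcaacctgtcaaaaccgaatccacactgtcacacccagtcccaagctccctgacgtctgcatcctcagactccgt
The CDKN1A stretch is 76.8% G or C and holds 2 of the 4 GC boxes of its 250-base window, the others lying in the bases left out, and the CDKN2C stretch is 45.6% G or C with 1 E box. Of 34943 windows of 250 bases before RefSeq starts, 42.5% hold a GC box and 6.32% an E box, shares that are for whole windows and not for the shorter CDKN1A stretch. The 250 bases before the other CDKN2C starts are 77.2% and 48.8% G or C. The former hold 5 GC boxes, and the latter 1 GC box, 1 CCAAT box and, like the stretch shown, 1 E box. The CHR element (TTTGAA), the CCAAT box (CCAAT), the TATA box (TATAAA) and 4 spellings of an E2F site (TTTCCCGC, TTTGGCGC, TTTCGCGC and TTTGCCGC) had no match in either stretch. Which start the counts come from is not known, since the table gives 1 count per gene.

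The other Cip/Kip genes stayed close to the control level. CDKN1B, which encodes p27, the inhibitor best known for holding neurons out of the cycle, ran from 119 CPM through a median of 121 to 122 CPM in siNC. In siZCC it ran from 121 through 124 to 128 CPM, and 5 of 6 siZCC libraries were above every siNC library. Its log2 fold change was 0.04 (SE 0.0238, adjusted p 0.242), with a 95% interval of 0.994 to 1.07 as a ratio. The exact permutation test gave p = 0.00866 before any adjustment over genes, and the coefficient of variation was only 1.01% in siNC and 2.07% in siZCC. With a correction for GC content and exon length the value was 0.06 (adjusted p 0.0357), past the threshold, and with the replicate block added to it the adjusted p was 0.0734, so the call for CDKN1B depends on that choice, and the fold was 1.03 in the uncorrected fit.

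CDKN1C encodes p57, an imprinted inhibitor expressed from the maternal allele. The siNC libraries ran from 7.26 CPM through 7.70 to 8.31 CPM. The siZCC libraries ran from 6.94 through 7.66 to 9.43 CPM, the lowest and the highest values of all 12. The log2 fold change was 0.01 (SE 0.0684, adjusted p 0.907), and the 95% interval of the ratio was 0.914 to 1.12. A change the size of that in CDKN1A lies outside this interval.

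The 4 INK4 genes differed in level and in precision. CDKN2D encodes p19, which persists in postmitotic neurons, and was the most abundant of them. It ran from 30.3 CPM through 32.8 to 35.2 CPM in siNC and from 27.7 through 31.6 to 34.2 CPM in siZCC. Its log2 fold change was -0.07 (SE 0.0540, adjusted p 0.391), with a ratio between 0.880 and 1.03 (95% interval). CDKN2A encodes p16 and, from another first exon, ARF, a protein of the nucleolus; counts per gene do not separate the products. The siNC libraries ran from 1.67 CPM through 2.35 to 2.60 CPM, and the siZCC libraries from 1.96 through 2.21 to 2.66 CPM. The groups overlapped almost wholly, with a log2 fold change of 0.01 (SE 0.104, adjusted p 0.965) and a ratio between 0.865 and 1.17.

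CDKN2B encodes p15, an inhibitor induced by TGF-beta. It ran from 2.56 CPM through 2.87 to 3.30 CPM in siNC and from 2.04 through 2.92 to 3.25 CPM in siZCC, where replicates 4 and 5 were below every siNC library. The log2 fold change was -0.09 (SE 0.103, adjusted p 0.600), with a ratio between 0.810 and 1.09. A gene annotated as protein-coding that overlaps CDKN2A and CDKN2B on the other strand, AL359922.1, had 0 counts in every library. CDKN2A and CDKN2B rested on 147 to 381 counts per library, and their intervals were wider than those of the other members.

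Reads of overlapping genes could enter these values, since the strand setting of the authors' counting is not given in the sources used here. In the GENCODE v29 annotation of GRCh38, the build the submitters' processing notes name, CDKN1A lies on chromosome 6 from 36676460 to 36687339 (plus strand) and shares 146 exon bases with DINOL, a noncoding RNA on the other strand that had 1 to 8 counts per library. CDKN2A (chromosome 9, 21967753 to 21995301, minus strand) shares 341 exon bases with the antisense RNA CDKN2B-AS1, which also spans CDKN2B (22002903 to 22009363, minus strand). CDKN2B-AS1 had 13 to 36 counts per library and a log2 fold change of -0.02 (SE 0.191, adjusted p 0.954). CDKN2C (chromosome 1, 50960745 to 50974633, plus strand), CDKN1C (chromosome 11, 2883213 to 2885773, minus strand) and CDKN2D (chromosome 19, 10566462 to 10569059, minus strand) overlap no other annotated gene. CDKN1B (chromosome 12, 12715058 to 12722371, plus strand) overlaps only AC008115.3, which lies within an intron and had a log2 fold change of -0.20 (adjusted p 0.224).

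Of the nearest coding genes of the 2 that changed, none that was tested was called in the same direction. FAF1 lies 482 bases from CDKN2C and averaged 50.2 CPM (SD 1.47) in siNC against 49.7 CPM (SD 0.994) in siZCC (log2 fold change -0.01, adjusted p 0.763). C1orf185, on the other side of CDKN2C at 127588 bases, had 0 to 3 counts per library and was not tested. On the sides of CDKN1A, RAB44 had a log2 fold change of 0.16 (SE 0.129, adjusted p 0.419), and the splicing factor gene SRSF3 fell by 0.33 on the log2 scale (SE 0.0328, adjusted p 4.14e-06) at a distance of 70860 bases. Of the coding genes beside the other 5, GPR19, APOLD1, KCNQ1, MTAP, DMRTA1, KRI1 and AP1M2 were tested and did not pass, with MTAP at 0.09 (adjusted p 0.0723), which passed with the GC and length correction (0.0452), with 1 surrogate variable (0.0343) and without siNC replicate 6 (0.0499). SLC22A18AS, next to CDKN1C, had 0 to 12 counts per library and was not tested.

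Per length of exon, which allows levels to be compared between genes, CDKN1A stood far above the rest. In siNC it had 213 ± 26.8 CPM per kilobase of exon, CDKN1B 43.0 ± 0.433 and CDKN2D 21.8 ± 1.16 (SD, n = 6). CDKN2C followed at 3.96 ± 0.203 and CDKN1C at 3.11 ± 0.167, and CDKN2B (0.726 ± 0.0716) and CDKN2A (0.524 ± 0.0785) were lowest. Neighbours in this order did not overlap in siNC. In siZCC, CDKN1C (3.15 ± 0.370) and CDKN2C (3.05 ± 0.225) overlapped, as did CDKN2B (0.682 ± 0.115) and CDKN2A (0.526 ± 0.0592). CDKN1A supplied 74.3% ± 2.07 of the summed per-kilobase level of the 7 genes in siNC and 81.6% ± 1.62 in siZCC. The ratio of CDKN1A to CDKN1B, both per kilobase, ran from 4.27 through a median of 4.91 to 5.99 in siNC and from 6.34 through 7.48 to 7.96 in siZCC. With the longest transcript in place of all exons, CDKN2A stood above CDKN2B in both groups, and CDKN2C and CDKN1C overlapped in siNC too, so these parts of the order depend on the length used.

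**Figure D3:**
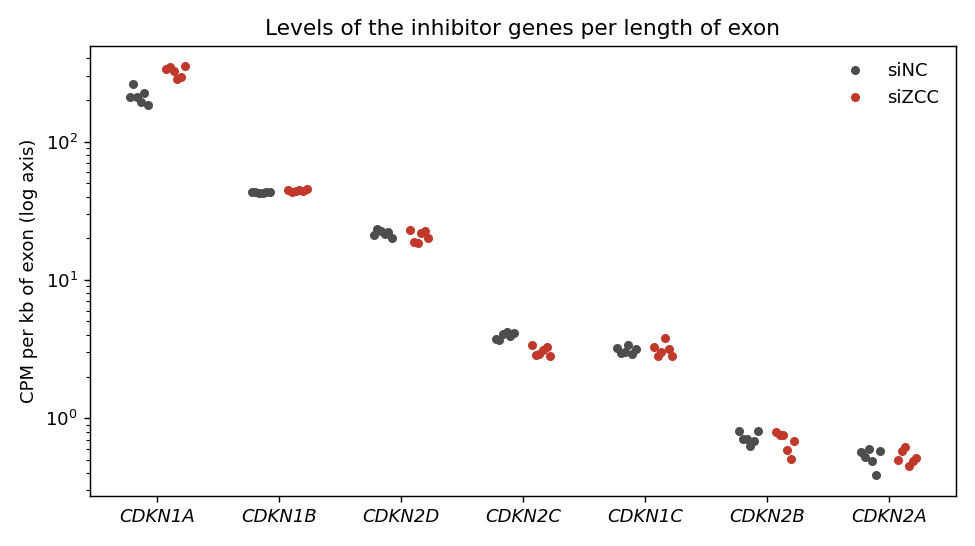
CPM per kilobase of annotated exon (y axis, log scale) of the 7 inhibitor genes in each library, 6 siNC (grey) and 6 siZCC (red). CDKN1A lies highest in every library, and CDKN2A and CDKN2B lie below 1.

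The changes were also fitted on each side of the split of the libraries by IL1B. CDKN1A was 0.48 (SE 0.103, adjusted p 0.0178) higher on the log2 scale among the 6 libraries with high IL1B and 0.69 (SE 0.0563, adjusted p 1.76e-04) among those with low IL1B. CDKN2C fell by 0.29 (SE 0.0660, adjusted p 0.0242) and 0.47 (SE 0.0639, adjusted p 0.00242) in the same fits. Within siZCC the 3 libraries with high IL1B had 10.4 to 11.1 CPM of CDKN2C and the 3 with low IL1B 9.30 to 9.64 CPM. CDKN2D was split likewise within siZCC, at 32.9 to 34.2 CPM with high and 27.7 to 30.3 CPM with low IL1B. CDKN1C was split in the same direction within siZCC. CDKN2A was split in the opposite direction there, with every high-IL1B library below every low-IL1B library. For CDKN1A, CDKN1B and CDKN2B the sides overlapped within siZCC. The share of all genes split in this way was not counted, so the splits serve as description only. In siNC the sides overlapped for CDKN2C, at 12.3 to 13.6 CPM (high) and 12.5 to 13.99 CPM (low). They overlapped for CDKN2D, at 30.3 to 35.2 and 31.6 to 33.1 CPM, and for CDKN1C and CDKN2A too. The difference between the sides over both groups did not pass for CDKN2C or CDKN2D (adjusted p 0.662 and 0.624, edgeR's quasi-likelihood test). Nor did it for CDKN1C or CDKN2A (adjusted p 0.718 and 0.985, same test). The interaction of siRNA and IL1B side did not pass for any of the 7 genes: its adjusted p was 0.935 to 0.984 over all genes, and 3 of them, CDKN1C (0.0212), CDKN2A (0.0173) and CDKN2D (0.0218), had an unadjusted p under 0.05, as did 4.77% of all genes (edgeR's quasi-likelihood test in each case). The log2 fold change of CDKN2A was -0.24 among the libraries with high IL1B and 0.25 among the others, neither past the threshold.

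The direct partners of the inhibitors were described next, as lists of genes with counts in each direction against the 22.2% called among all genes. Of 16 CDKs and cyclins, 0 rose and 5 fell (31.2%), with a median log2 fold change of -0.08. All 5 act from DNA replication onward or in meiosis. CCNB1, the cyclin that takes cells into mitosis, fell from 50.2 ± 2.04 to 33.0 ± 2.14 CPM (SD, n = 6 each; log2 fold change -0.61, SE 0.0410), CCNB2 by 0.55 (SE 0.0480) and CCNA2 by 0.33 (SE 0.0371) on that scale. CDK1, their kinase, and CCNA1 also fell. The kinases that INK4 proteins bind did not pass: CDK4 stood at 118 ± 5.14 and 126 ± 4.66 CPM (adjusted p 0.0598) and CDK6 at 97.1 ± 10.7 and 91.8 ± 7.54 CPM (adjusted p 0.417). CDK4 lay at the threshold: it passed as higher in 4 alternatives, among them the GC and length correction (log2 fold change 0.10, adjusted p 0.00925), and without siNC replicate 2 (0.0450), siNC replicate 3 (0.0311) or siZCC replicate 2 (0.0322), each an adjusted p. The D-type cyclins CCND1 (-0.05), CCND2 (-0.08) and CCND3 (-0.02) and the E-type cyclins CCNE1 (-0.19) and CCNE2 (-0.10) did not pass either (log2 fold changes), though CCNE1 did without siZCC replicate 1 (-0.27, adjusted p 0.0202).

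Among 20 genes of the retinoblastoma and E2F system, 1 rose and 3 fell (20%), and the median was -0.01. FOXM1, a transcription factor of mitotic genes, fell by 0.21 (SE 0.0415), TFDP1, the dimer partner of E2F proteins, by 0.12 (SE 0.0274) and RBL1 (p107) by 0.18 (SE 0.0445) on the log2 scale. E2F6, a repressor, rose by 0.08 (SE 0.0261). RB1 itself stood at 92.2 ± 6.33 and 94.7 ± 4.13 CPM (adjusted p 0.571) and E2F1 at 23.0 ± 0.983 and 23.4 ± 1.15 CPM (adjusted p 0.709). Of 13 other regulators of CDK activity, 0 rose and 2 fell (15.4%, median -0.05). They were CDKN3, a phosphatase that acts on CDKs despite its symbol, by 0.44 (SE 0.0507), and CDC25C, a phosphatase that activates CDK1, by 0.32 (SE 0.0655). Without siZCC replicate 2, 4 of the 13 were called.

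Genes that set the stability of Cip/Kip proteins gave 1 higher and 4 lower of 15 (33.3%, median -0.02), and 3 were called without siZCC replicate 4 or 6. CDC20 (-0.70, SE 0.0589) and CKS2 (-0.40, SE 0.0461), both also mitotic genes, had the largest falls (log2 fold change). CUL1, the scaffold of the ligase that marks p27 for destruction, was lower by 0.08 (log2 value -0.08, SE 0.0245), and DDB1, an adaptor of the ligase that acts on p21, rose by 0.13 (SE 0.0268). PCNA, also a gene of DNA replication, fell (log2 fold change -0.10, SE 0.0344). SKP2, the receptor for p27, stood at 31.8 ± 1.22 and 33.1 ± 0.990 CPM (adjusted p 0.222) and passed only with the GC and length correction, without (0.0333) and with (0.0281) the replicate block. Transcription regulators of the Cip/Kip genes gave 2 higher and 2 lower of 17 (23.5%, median -0.01). SMAD3 (0.13, SE 0.0285), a carrier of TGF-beta signals, and FOXO3 (0.12, SE 0.0405) rose, and KLF6 (-0.25, SE 0.0409) and MYC (-0.18, SE 0.0377), a repressor of CDKN1A, fell on the log2 scale.

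Polycomb complexes silence the INK4 locus. A list of Polycomb genes and other regulators of the INK4 genes (ETS1, ETS2, ID1 and KDM6B among them) gave 3 higher and 4 lower of 20 (35%, median -0.01). Without siNC replicate 1, siZCC replicate 4 or siZCC replicate 6, 4 were called. EZH2, the catalytic subunit of dividing cells, fell from 50.1 ± 0.461 to 44.6 ± 1.31 CPM, while EZH1, its counterpart in resting cells, rose from 66.7 ± 2.54 to 73.4 ± 1.54 CPM (SD, n = 6 each). BMI1 (-0.14, SE 0.0277) and RNF2 (-0.14, SE 0.0355), both of Polycomb complex 1, and ETS1 (-0.47, SE 0.151), an activator of CDKN2A, fell and CBX7 (0.16, SE 0.0537) and PHC3 (0.20, SE 0.0685) rose on the log2 scale. CDKN2A and CDKN2B themselves did not pass the test, as given above.

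Proliferation genes gave 0 higher and 19 lower of 31 (61.3%, median -0.33). AURKA fell by 0.67 (SE 0.0497), HMMR by 0.65 (SE 0.0488) and BIRC5 by 0.51 (SE 0.0376). The 12 that did not pass were MCM2 to MCM7, CDC6, CDC45, TYMS, RRM2 and GINS2, all of DNA replication, and NUSAP1, which averaged under 1 CPM. Among them GINS2, MCM6, MCM7, RRM2 and MCM3 were lower with an adjusted p of 0.0660 to 0.0914 (edgeR's quasi-likelihood test). MCM2 and CDC45 lay slightly above the control level. The 19 that fell were mostly genes of mitosis, with UHRF1, a DNA methylation factor, beside them. In the 6 libraries with high IL1B alone, 16 of the 31 genes were called, and in the other 6 libraries 21. Over all alternatives the count ran from 16 to 22, and over single libraries left out from 19 to 23. Beside this list stand the 8 of 15 neuron and 4 of 10 mesenchymal markers that fell, and their part in it was not tested.

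Senescence-associated genes, examined because p21 and the INK4 proteins are used as markers of that state, gave 3 higher and 4 lower of 19 tested (36.8%, median -0.05), and MMP1 and MMP3 were too low to test. GLB1 (0.15, SE 0.0324), which encodes the lysosomal beta-galactosidase used to stain senescent cells, IGFBP7 (0.15, SE 0.0522) and HMGA1 (0.15, SE 0.0423) rose. LMNB1 (-0.22, SE 0.0363), HMGB1 (-0.12, SE 0.0289), HMGB2 (-0.20, SE 0.0502) and CCL2 (-0.44, SE 0.117) fell on the log2 scale. The secreted factors IL6, CXCL8, IL1A, IL1B and CXCL1 did not pass and varied as widely as their means: CXCL8 averaged 6.82 CPM (SD 6.99) in siNC against 7.39 CPM (SD 7.93) in siZCC. IL1B is the gene that defines the split of the libraries. With that split as a block, the SE of the CXCL8 log2 fold change was 0.1925, against 0.8413 without it. In these sentences on lists, the adjusted p of each gene said to have risen or fallen ran from 1.17e-07 for CCNB1 to 0.0489 for IGFBP7 (edgeR's quasi-likelihood test). The calls of CBX7, IGFBP7, PHC3, FOXO3, PCNA, E2F6, CUL1, ETS1 and CCNA1 (adjusted p 0.0233 to 0.0489) were the least stable. They were lost in between 5 (CCNA1) and 17 (CBX7 and IGFBP7) of the 14 alternatives and 12 fits without 1 library.

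**Figure D4:**
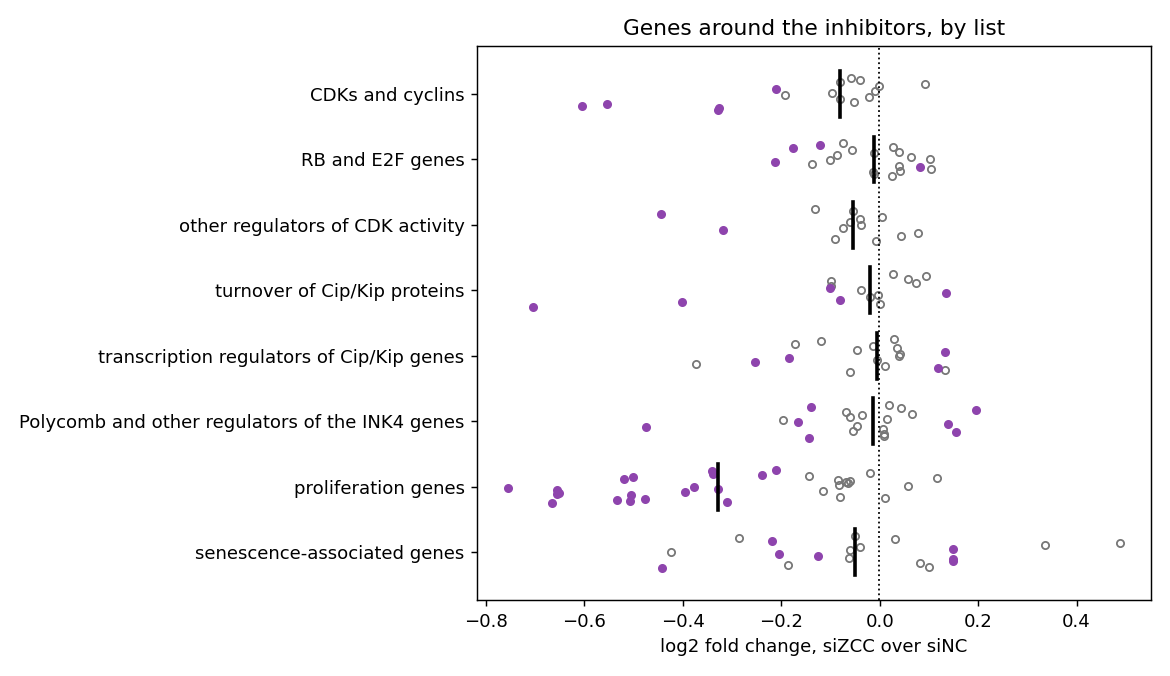
Log2 fold change, siZCC over siNC (x axis), of each tested gene of 8 lists (rows); filled points passed an adjusted p under 0.05, open points did not, the bar is each list's median and the dotted line the median of all genes. The proliferation genes lie furthest to the left (median -0.33), and the medians of the other lists lie between -0.08 and -0.01.

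Genes whose library-to-library pattern resembled that of each inhibitor were sought among 12624 others with a mean of at least 5 CPM, by Pearson's r of the deviations of log2 CPM from the group means over the 12 libraries. This removes the difference between the groups, and since the highest of so many values are picked, they serve as description only. For CDKN1A they were PHYH (0.933), SH2D5 (0.928) and CISD1 (0.914). For CDKN2C they were SAMD11 (0.888), PINK1-AS (0.878) and XXYLT1 (0.876). CDKN2D was most like PAK6 (0.964), TOLLIP (0.963) and ITPK1 (0.962), CDKN1C like KIAA0319 (0.889), CDO1 (0.884) and NDST1 (0.880), and CDKN1B like ALG12 (0.850) and NDUFA6-DT (0.829). None of these genes is a member of either family, and no inhibitor was among the nearest of another.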

How the data were processed

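The authors deposited raw counts, 1 column per library and 1 symbol per gene, made with bcl2fastq 2.17, STAR 2.7.6a and featureCounts 2.0.1 on GRCh38, per the submitters' processing notes; which gene annotation and strand setting they used is not given in the sources used here. Per the labels' protocols, NEBNext Ultra II Directional reagents were used on total RNA. Groups and replicate numbers come from the titles.

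Genes were kept by filterByExpr, scaled by TMM and compared by edgeR 4.0.16's quasi-likelihood test (R 4.3.3) over all 12 libraries without covariates, with Benjamini-Hochberg adjustment over the 24671 genes kept and a threshold of 0.05. CPM are TMM-scaled, log2 CPM use a prior count of 2, and the SE is the log2 fold change divided by the square root of F. Exact permutation tests are two-sided. Of the symbols, 94.9% were matched to GENCODE v29 for positions and exon lengths, and 6 of the 7 members to RefSeq promoters. The fit was tested on simulated counts.

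Alternatives used DESeq2 1.42.0, limma 3.58.1 (voom), sva 3.50.0, other scalings and filters, a replicate block, a correction for GC content and length, thinning to 76115083 counts, the IL1B split and the libraries left out in turn; the interaction with the IL1B side was added after seeing the data. Between groups, libraries sharing a number had correlations of their deviations from -0.08 to 0.02, which show no pairing by number. IL1B was high in siNC replicates 2, 3 and 6 and in siZCC replicates 1, 4 and 5. Libraries sharing a number thus lay on opposite sides of the IL1B split. No library was a copy of another (chi-square per degree of freedom 5.15 to 24.9). At a depth of 76115083 to 120023356 counts, counting error is largest for CDKN2A and CDKN2B, the members with the fewest counts. Its part in their spread was not tested. The members, the lists and the naming rule were all chosen with earlier results of these data known. The rule names all members, up to 3 genes of smallest p per direction in each list, overlapping and nearest genes, and the 3 genes most like each member of at least 5 CPM; other genes named in the lists, and the sorting of the proliferation genes into replication and mitosis, were chosen after their values were seen. A few list genes, 1 planned list and 1 gene named by the rule are not reported here, and list counts are without them.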

Additional observations from a re-analysis of the deposited data

Results flagged for a closer look

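Among ZCCHC17, the 7 inhibitors and the library totals, 18 groups of 6 libraries were examined by Dixon's 95% limit, which chance passes in about 1 in 20 groups. The total of siNC replicate 4 passed it: 90755953 counts, the lowest of siNC, where the next was 109973707 and the highest 120023356, so that the gap took 0.657 of the whole range. No inhibitor gene had such a library. Without siNC replicate 4, CDKN1A had a log2 fold change of 0.56 (adjusted p 8.96e-05) and CDKN2C of -0.36 (adjusted p 3.11e-04, edgeR's quasi-likelihood test).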

How the results depend on the processing

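CDKN1A and CDKN2C kept their direction and their call in all 14 alternatives and in the 12 fits that each left out 1 library. CDKN1A ran from 0.55 to 0.66 (log2) over single libraries left out and from 0.48 to 0.70 over the other alternatives, with an adjusted p of at most 0.0178. CDKN2C ran from -0.41 to -0.36 and from -0.47 to -0.29, with an adjusted p of at most 0.0242. With the replicate number as a block, CDKN1A was 0.60 and CDKN2C -0.38, no inhibitor's call changed, and 4902 genes were called. The correlations given above showed no pairing by number, and each block sets a library with high against one with low IL1B. Beside 5481 genes called, 2043 were called with the 6 high-IL1B libraries and 1602 with the 6 low-IL1B ones, which have fewer samples. Single libraries left out gave 4484 to 5626.

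CDKN1B passed only with the correction for GC content and length (0.0625). CDKN1C, CDKN2A, CDKN2B and CDKN2D, which were not called, changed sign in some settings, and the cause was not tested. For CDKN1C these were the GC correction (-0.0219), that with the replicate block (-0.0239), 1 surrogate variable (-0.115), thinning (-0.0042) and low IL1B (-0.134), and single libraries left out gave -0.0427 to 0.0470. For CDKN2A they were upper quartile scaling (-0.00057), the GC correction (-0.0170), that with the block (-0.0149) and high IL1B (-0.238), and single libraries left out gave -0.0663 to 0.0522. CDKN2B was 0.0344 with 1 surrogate variable and 0.0409 with low IL1B, and CDKN2D 0.0230 with high IL1B.

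Neighbours also changed sign. AP1M2 was 0.239 and APOLD1 0.00891 with high IL1B, CDKN2B-AS1 0.00675 with 1 surrogate variable, DMRTA1 0.00317 with the GC correction, 0.00492 with that and the block and 0.0299 with high IL1B, and KCNQ1 0.0188 after thinning and 0.211 with high IL1B. Single libraries left out gave -0.234 to 0.0765 for AP1M2, -0.121 to 0.0887 for CDKN2B-AS1, -0.143 to 0.114 for DMRTA1 and -0.142 to 0.137 for KCNQ1. Of list genes not called, CCND2 was 0.0106 and E2F1 -0.0530 with low IL1B, CCND3 0.0228 with high IL1B, and E2F1 -0.00365 with the GC correction, -0.00294 with that and the block and -0.0302 with 1 surrogate variable. CXCL8 was -0.262 with limma voom, -2.09 with 1 surrogate variable and -0.268 with low IL1B, and single libraries left out gave -0.470 to 0.576.

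List counts moved with fewer libraries. With high IL1B they were 3 for CDKs and cyclins, 0 for RB and E2F genes, 1 for other regulators of CDK activity, 3 for turnover, 1 for transcription regulators and 4 for Polycomb. With low IL1B they were 1 for RB and E2F genes, 1 for other regulators of CDK activity, 2 for turnover, 0 for transcription regulators, 1 for Polycomb and 4 for senescence-associated genes. The GC correction gave 7 RB and E2F genes, with or without the replicate block. Turnover was 3 with the block and 3 with 1 surrogate variable, which gave 4 for Polycomb. Single libraries left out gave 2 to 4 other regulators of CDK activity, 3 to 7 of turnover and 4 to 6 of Polycomb. Of the values of single list genes and neighbours over the 14 alternatives, 744 kept their side, 67 lost a call, 8 gained one and 17 changed sign, and without single libraries these were 640, 56, 5 and 19. Counts per library were lowest for CDKN2A and CDKN2B, and how much of their spread is counting error was not tested.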
